A study of Mus musculus with 10 samples.

Results

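Blood and lymph vessel genes were followed in mouse skin through 10 genes chosen by name: the growth factors Vegfa, Vegfc and Angpt2, the receptors Kdr, Flt1, Flt4 and Tek, the junction proteins Pecam1 and Cdh5, and the lymphatic transcription factor Prox1. They are 10 of the 49671 gene identifiers counted in every library, and all 10 were among the 18060 genes with enough reads to be tested. Their levels are given as CPM, a gene's reads relative to the scaled size of its library on a scale common to all libraries.

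Blood vessels are lined by endothelial cells that are held together by VE-cadherin (Cdh5) and PECAM1 (CD31). VEGF-A from epidermis, hair follicles and other tissue binds VEGFR2 (Kdr), the main receptor for endothelial growth and permeability, and VEGFR1 (Flt1), which also acts as a decoy that binds VEGF-A without strong signalling. VEGF-C acts mainly through VEGFR3 (Flt4) on lymphatic endothelium, whose identity depends on Prox1, and angiopoietin-2 (Angpt2) modulates TIE2 (Tek), a receptor that keeps vessels quiet and stable.

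The libraries hold poly(A) RNA from whole skin of 10 mice aged 22 weeks, 1 library per mouse. The mutants (NPYtet, n = 5, labelled 3 female and 2 male) were homozygous for the altered allele of the mouse strain named B6;129S4-Npytm2Rpa/J. The controls (WT, n = 5, labelled 2 female and 3 male) were their wildtype siblings. No treatment is given in the labels. Which cells express the altered allele was not given in the sources used here, and the study's title names overexpression of Npy, the gene of neuropeptide Y. In whole skin, fewer vessel cells and less RNA per vessel cell cannot be told apart.

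Npy was at 0.0941 to 2.86 CPM in WT and 96.2 to 485 CPM in NPYtet, with no overlap (log2 fold change 7.45, SE 0.62, edgeR adjusted p = 0.000109). Total counts ran from 23209405 to 53357695 reads. WT replicate 2 and NPYtet replicate 5, both labelled male, stood apart: the ribosomal RNA locus took 1.82% and 4.70% of their reads, against 0.243% to 0.443% in the other 8 libraries, and 21144 and 19953 genes had a read, against 24710 to 26323. NPYtet replicate 1 is labelled female but had 0.0492 CPM of Xist (332.7 to 462 CPM in the other libraries labelled female) and 37.2 CPM of the Y-linked Ddx3y (0 in those libraries). Its label was kept, and the main results that rest on it or on the other 2 are also given without them. Removals of several libraries together were chosen after the data were seen.

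Per kilobase of exon, Vegfa had the highest mean level of the 10 genes (13.6 ± 4.38 CPM per kb, SD over 10 libraries) and Prox1 the lowest (0.438 ± 0.194 CPM per kb). Between them came Pecam1 (10.9 ± 4.09 CPM per kb), Cdh5 (9.40 ± 3.60 CPM per kb), Tek (3.85 ± 2.0 CPM per kb), Kdr (2.57 ± 1.01 CPM per kb), Vegfc (2.27 ± 1.10 CPM per kb), Flt4 (2.23 ± 0.731 CPM per kb), Flt1 (1.72 ± 0.589 CPM per kb) and Angpt2 (1.34 ± 0.498 CPM per kb). Within libraries, 2 of the 9 neighbouring steps held in all 10: Cdh5 was above Tek and Angpt2 was above Prox1 in each. Vegfc was above Flt4 in 5 of 10 libraries, so these 2 levels were not ordered, and the other 6 steps held in 7 to 9 libraries. The pan-endothelial Pecam1 and Cdh5 thus stood above all 4 receptors by mean level, and the lymphatic Prox1 stood at the bottom. Exon length here is the union over all annotated transcripts, which lowers the value of genes with long rare isoforms.

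The reads behind these levels ran from 23 (Prox1, in WT replicate 2) to 4151 (Vegfa). The vessel genes varied widely between mice, with 3.02-fold (Flt4) to 8.10-fold (Tek) between the highest and the lowest library. The lowest library of every one of the 10 genes was WT replicate 2 (Kdr, Tek, Angpt2, Vegfc and Prox1) or NPYtet replicate 5 (Pecam1, Cdh5, Flt1, Vegfa and Flt4). The share of all genes that were lowest in these 2 libraries was not counted, so this may not be particular to vessel genes. Among the other 8 libraries, the highest was 1.80 to 3.48 times the lowest. The summed level of Pecam1, Cdh5, Kdr, Flt1 and Tek was 77.5 CPM in WT replicate 2 and 74.3 CPM in NPYtet replicate 5, against 138.3 to 247.8 CPM in the other 8. Each genotype therefore holds 1 library with a low sum of these 5 genes. The sum of 26 other blood endothelial identity genes was not low there. It was 1382 CPM in WT replicate 2 and 944.4 CPM in NPYtet replicate 5, against 567.9 to 1167 CPM in the other 8. Such a sum weighs its abundant members most: Cd34 alone had a mean of 262.5 CPM in WT and 332.5 CPM in NPYtet.

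**Figure D1:**
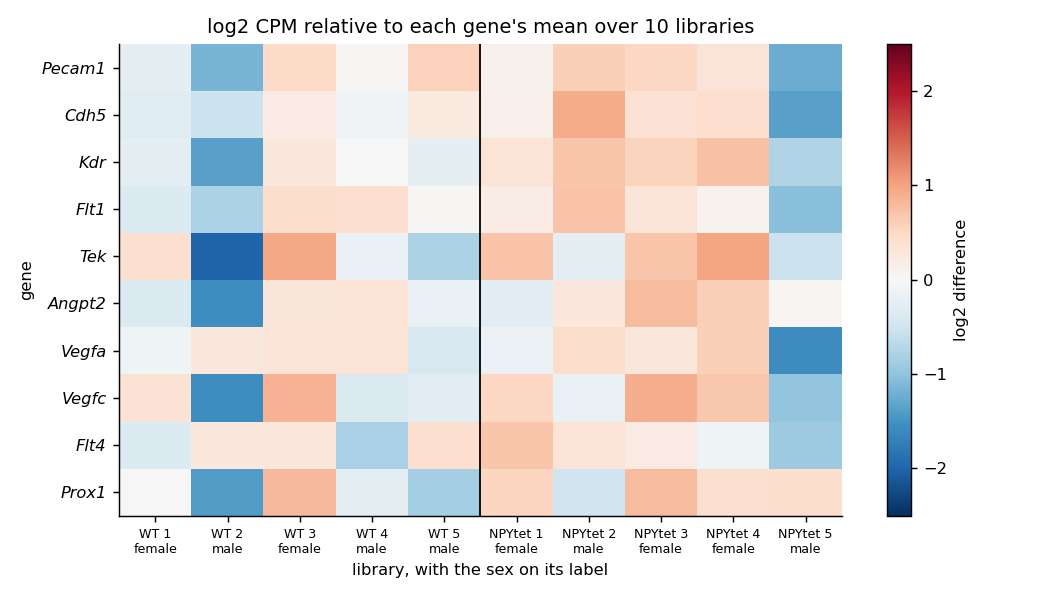
Level of the 10 vessel genes in each of the 10 libraries, as log2 CPM minus the gene's mean over the libraries; columns are libraries with the sex on their label, rows are genes, and the vertical line parts WT from NPYtet. WT replicate 2 and NPYtet replicate 5 are the bluest columns, except for Vegfa and Flt4 in the former and Prox1, Angpt2 and Tek in the latter.

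The main question of the study's design is how NPYtet skin differs from WT skin. None of the 10 vessel genes passed the test between genotypes (edgeR quasi-likelihood test with sex as a term, adjusted p = 0.999 for each). Over all genes tested, 0.00554% were called, which is Npy alone. At an unadjusted p under 0.05, 0 of 10 vessel genes and 3.59% of all genes passed (1.46% higher and 2.14% lower in NPYtet). The fitted difference, signed as NPYtet minus WT, was positive for 9 of 10 vessel genes and for 48.8% of all genes. Its median log2 fold change was 0.18 for the vessel genes, against -0.01 over all genes. No vessel gene's groups failed to overlap (0.305% of all genes did not). The 95% intervals of the folds ran from 0.540 to 2.44 over the 10 genes, so that differences of up to about that size in either direction are not resolved by these libraries.

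**Figure D2:**
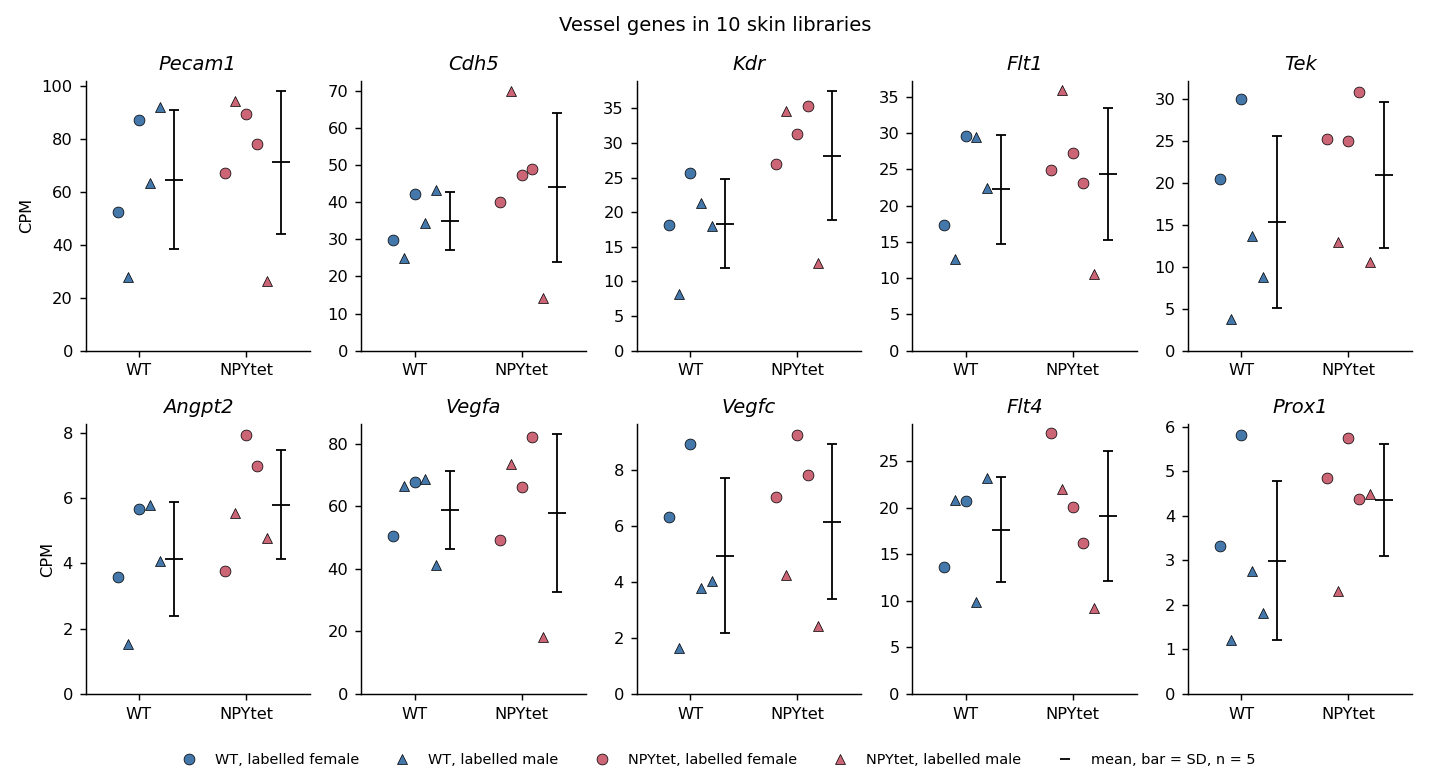
CPM of each vessel gene in WT and NPYtet skin; circles are libraries labelled female, triangles those labelled male, and the bar is the mean ± SD of 5 libraries. The groups overlap in every panel, and in the Kdr panel the 4 NPYtet libraries other than the lowest lie above all WT libraries.

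Of the growth factors, Vegfa (chr17:46016993-46032369, minus strand; all positions are those of the GRCm38 assembly with GENCODE M21) was at 50.6, 66.5, 67.8, 68.7 and 41.1 CPM in WT replicates 1 to 5 and at 49.2, 73.4, 66.2, 82.1 and 18.2 CPM in NPYtet replicates 1 to 5. The means were nearly equal (59.0 ± 12.4 and 57.8 ± 25.2 CPM, SD, n = 5), with the 1 low NPYtet library far below every other value. The fitted log2 fold change was -0.10 (SE 0.37), and it turned positive (0.27, SE 0.24) without WT replicate 2 and NPYtet replicate 5.

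Vegfc (chr8:54077606-54187096, plus strand), the lymphatic growth factor, was at 6.33, 1.64, 8.96, 3.81 and 4.04 CPM in WT and at 7.03, 4.26, 9.27, 7.83 and 2.45 CPM in NPYtet, in the same order. Its values split by the sex on the label, described further on, rather than by genotype (log2 fold change 0.08, SE 0.35). Angpt2 (chr8:18690263-18741562, minus strand) was at 3.56, 1.53, 5.67, 5.79 and 4.07 CPM in WT and at 3.76, 5.54, 7.93, 6.96 and 4.76 CPM in NPYtet. The 2 highest values were from NPYtet and the 2 lowest from WT, and the groups overlapped in between (log2 fold change 0.43, SE 0.40). Angpt2 lies opposite Mcph1, a gene with 40 to 629 reads of its own on the other strand, and the strand setting of the counts was not given in the sources used here.

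Of the receptors, Kdr (chr5:75932827-75978458, minus strand) had the largest fitted difference of the 10 genes and the smallest p. It was at 18.2, 8.25, 25.7, 21.3 and 18.1 CPM in WT replicates 1 to 5 and at 27.0, 34.6, 31.3, 35.4 and 12.6 CPM in NPYtet replicates 1 to 5. Each group held 1 low library, and the 4 other NPYtet values were above all 5 WT values. The means were 18.3 ± 6.43 and 28.2 ± 9.30 CPM (SD, n = 5), and the fitted fold was 1.46 with a 95% interval from 0.871 to 2.43 (edgeR unadjusted p = 0.14, adjusted p = 0.999). WT replicate 2 and NPYtet replicate 5 held the lowest Kdr value of their groups, and leaving them out was chosen after the data were seen. Without them the groups did not overlap (18.1 to 25.7 against 27.0 to 35.4 CPM, 4 libraries each), as the values above already fix. There the log2 fold change was 0.64 (SE 0.19, edgeR unadjusted p = 0.00818, adjusted p = 0.928), and 1.66% of all genes did not overlap between these 4 and 4 libraries. These values are a description, since each group lost its lowest value. Without NPYtet replicate 2 the log2 fold change of Kdr was 0.20 (SE 0.38), and with a score of growing hair follicle genes as a covariate it was 0.23 (SE 0.47).

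Flt1 (chr5:147561604-147726011, minus strand), the other VEGF-A receptor, was at 12.6 to 29.5 CPM in WT (median 22.4) and 10.5 to 35.9 CPM in NPYtet (median 24.9). Its log2 fold change was 0.11 (SE 0.36). Flt4 (chr11:49609263-49652739, plus strand), the VEGF-C receptor of lymphatic vessels, was at 9.85 to 23.2 CPM in WT (median 20.7) and 9.26 to 28.0 CPM in NPYtet (median 20.1), with a log2 fold change of 0.06 (SE 0.36). For both, the groups covered almost the same range.

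Tek (chr4:94739289-94874976, plus strand) was at 20.5, 3.81, 30.0, 13.7 and 8.85 CPM in WT and at 25.3, 13.0, 25.1, 30.8 and 10.6 CPM in NPYtet. Low and high values occurred in both genotypes, and the log2 fold change was 0.26 (SE 0.34). Pecam1 (chr11:106654217-106750628, minus strand) was at 27.8 to 92.3 CPM in WT (median 63.5) and 26.4 to 94.5 CPM in NPYtet (median 78.3), with a log2 fold change of 0.07 (SE 0.39). Cdh5 (chr8:104101625-104144511, plus strand) was at 29.7, 25.1, 42.1, 34.5 and 43.4 CPM in WT and at 40.0, 69.8, 47.3, 48.8 and 14.2 CPM in NPYtet. Its NPYtet values held both the highest and the lowest of all 10, and the log2 fold change was 0.32 (SE 0.37).

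Pecam1 is also made by platelets and leukocytes, unlike Cdh5. The summed level of 7 platelet genes was 61.5 to 161.2 CPM in WT and 62.3 to 127.3 CPM in NPYtet, and that of 10 leukocyte genes was 355.5 to 1029 CPM in WT and 586.5 to 1023 CPM in NPYtet, with no marker of either list at 0 in every library. Their part in the Pecam1 level was not tested.

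Prox1 (chr1:190118035-190170714, minus strand) was at 3.33, 1.22, 5.83, 2.76 and 1.81 CPM in WT and at 4.85, 2.32, 5.74, 4.37 and 4.5 CPM in NPYtet. Of the NPYtet values, 4 lay above 4 of the WT values, and WT replicate 3 was the highest of all. The log2 fold change was 0.46 (SE 0.38, edgeR unadjusted p = 0.248). It was 0.71 (SE 0.43) without WT replicate 3, 0.19 (SE 0.35) without NPYtet replicate 5, 0.11 (SE 0.29) without WT replicate 2 and NPYtet replicate 5, and 0.02 (SE 0.24) with limma voom. NPYtet replicate 5, the library with the lowest Cdh5, was not low in Prox1.

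**Figure D3:**
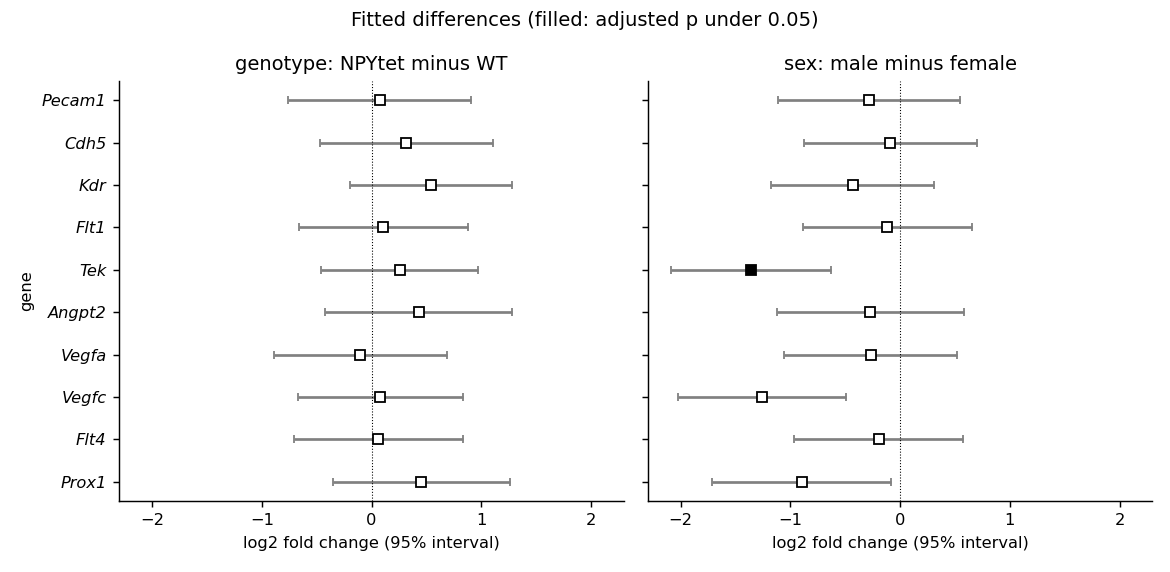
Fitted log2 fold change of each vessel gene with its 95% interval, for genotype (left, NPYtet minus WT) and for the sex on the label (right, male minus female); a filled square marks an adjusted p under 0.05. All 10 genotype intervals include 0, and of the sex intervals those of Tek, Vegfc and Prox1 do not.

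Wider lists of vessel genes, counted without the 10 above, held no gene past the test between genotypes. Most members had a positive fitted difference in the lists of blood endothelial, lymphatic, pericyte, VEGF, angiopoietin, arterial and venous, and inhibitor genes, and a negative one in the Notch and hypoxia lists. Of 26 blood endothelial identity genes, 23 had a positive fitted difference (48.8% of all genes did), with a median log2 fold change of 0.20. The smallest p values there were those of Etv2, an early endothelial transcription factor (0.22 ± 0.11 CPM in WT and 0.47 ± 0.30 CPM in NPYtet, log2 fold change 1.10, SE 0.62), Myct1 (0.48, SE 0.35) and the endothelial surface protein Emcn (0.53, SE 0.44). Of 12 lymphatic genes tested, 10 were positive (median 0.28), with Nr2f2, a partner of Prox1 in lymphatic identity, at 13.4 ± 4.45 CPM in WT and 19.4 ± 2.5 CPM in NPYtet (log2 fold change 0.46, SE 0.29). Fgl2 (0.48, SE 0.30) and Adamts3, a protease of the VEGF-C maturation step (-0.85, SE 0.65), had the next smallest p values.

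Of 9 pericyte genes, which mark the contractile cells around small vessels, 8 were positive (median 0.18). Rgs5 was at 41.5 ± 23.8 CPM in WT and 68.5 ± 19.8 CPM in NPYtet (log2 fold change 0.66, SE 0.38), and the channel subunits Abcc9 (0.63, SE 0.41) and Kcnj8 (0.36, SE 0.33) followed. The 6 other VEGF ligands and receptors were 5 positive and 1 negative (median 0.22): the log2 fold change was 0.44 (SE 0.29) for the co-receptor Nrp1 and -0.54 (SE 0.35) for its relative Nrp2. The 6 other angiopoietin and Tie genes were 4 positive and 2 negative (median 0.19), with Angpt1, the activating ligand of TIE2, at 0.62 (SE 0.49), and Ptprb, the phosphatase that acts on TIE2, at 0.42 (SE 0.33). The Notch and sprouting list went the other way, with 9 of 13 genes negative (median -0.15), among them Notch1 (-0.56, SE 0.34) and Jag1 (-0.52, SE 0.37), while the tip-cell ligand Dll4 was at 0.44 (SE 0.36).

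Of 11 arterial and venous genes, 7 were positive (median 0.06), with the venular receptor Ackr1 at 0.52 (SE 0.39) and the arterial connexin Gja4 at 0.46 (SE 0.35). Of 9 angiogenesis inhibitors, 6 were positive (median 0.23), and Col4a3 had the smallest p of these lists (1.58 ± 0.66 CPM in WT, 3.12 ± 1.57 CPM in NPYtet; log2 fold change 0.92, SE 0.45, edgeR unadjusted p = 0.0597). The 15 hypoxia response genes were 7 positive and 8 negative (median -0.20). The log2 fold change was 0.62 (SE 0.46) for the vasodilator peptide gene Adm and 0.30 (SE 0.31) for Hif1a, the oxygen-regulated transcription factor. For Ndrg1, of the same list, it was -0.31 (SE 0.354).

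Markers of other tissue parts moved between the same libraries. The summed level of 21 genes of the growing hair follicle was 330.1 to 30050 CPM in WT and 37.9 to 16320 CPM in NPYtet, and all 21 had a negative fitted difference (median log2 fold change -4.14). None passed the test. The summed level of 16 white adipocyte genes was 2116 to 6570 CPM in WT and 3345 to 8607 CPM in NPYtet, with 15 of 16 positive (median 0.44) and none past the test. Of 9 fibroblast genes, 7 were positive and 2 negative (median 0.52). Of 10 keratinocyte genes, 6 were positive and 4 negative (median 0.19). Of 9 skeletal muscle genes, 4 were positive and 5 negative (median -0.08). No gene of these lists passed the test. With the follicle score as a covariate, the vessel genes were 4 positive and 6 negative (median -0.15) and the 26 endothelial identity genes 13 and 13. With the adipocyte score as a covariate, the vessel genes stayed 9 positive and 1 negative, while the endothelial identity genes were 12 positive and 14 negative. Without WT replicate 2 and NPYtet replicate 5, 10 of 10 vessel genes and 26 of 26 endothelial identity genes were positive (medians 0.26 and 0.36), none past the test. The Notch and hypoxia medians then turned positive (0.23 and 0.14). This removal was chosen after the data were seen. The share of all genes that were positive without these libraries is not given here, so the counts may not be particular to vessel genes.

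Ratios between 2 genes of 1 library do not depend on how libraries are scaled, and 3 were compared between genotypes. Unlike the gene fits, the ratio test had no sex term, and the labelled sexes were not balanced between the genotypes. Vegfa reads per Kdr read, the ligand over its receptor, were 2.79, 8.06, 2.64, 3.23 and 2.27 in WT replicates 1 to 5 and 1.82, 2.12, 2.12, 2.32 and 1.44 in NPYtet replicates 1 to 5. The NPYtet ratios were the lower ones, with NPYtet replicate 4 just above WT replicate 5 as the only overlap. The mean log2 ratio was 1.75 ± 0.73 in WT and 0.95 ± 0.27 in NPYtet (SD, n = 5), a difference of -0.80 (two-sided exact permutation test over 252 divisions, p = 0.0159, adjusted over 3 ratios p = 0.0477). The highest ratio was that of WT replicate 2, without which the difference was -0.48 (exact permutation test, adjusted p = 0.0714). Without both WT replicate 2 and NPYtet replicate 5 it was -0.38 (exact permutation test, p = 0.0571, adjusted p = 0.171), and leaving out NPYtet replicate 1, 2, 3 or 5 alone also ended the call.

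Angpt2 reads per Tek read were 0.174 to 0.460 in WT (median 0.403) and 0.149 to 0.450 in NPYtet (median 0.317). The difference of the mean log2 ratio was -0.07 (exact permutation test, p = 0.857). Prox1 reads per Cdh5 read were 0.0418 to 0.138 in WT (median 0.0801) and 0.0333 to 0.318 in NPYtet (median 0.121), with a log2 difference of 0.49 (exact permutation test, p = 0.484, adjusted p = 0.726). The highest Prox1 ratio was that of NPYtet replicate 5, and without it and WT replicate 2 the sign of the difference turned (-0.06).

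**Figure D4:**
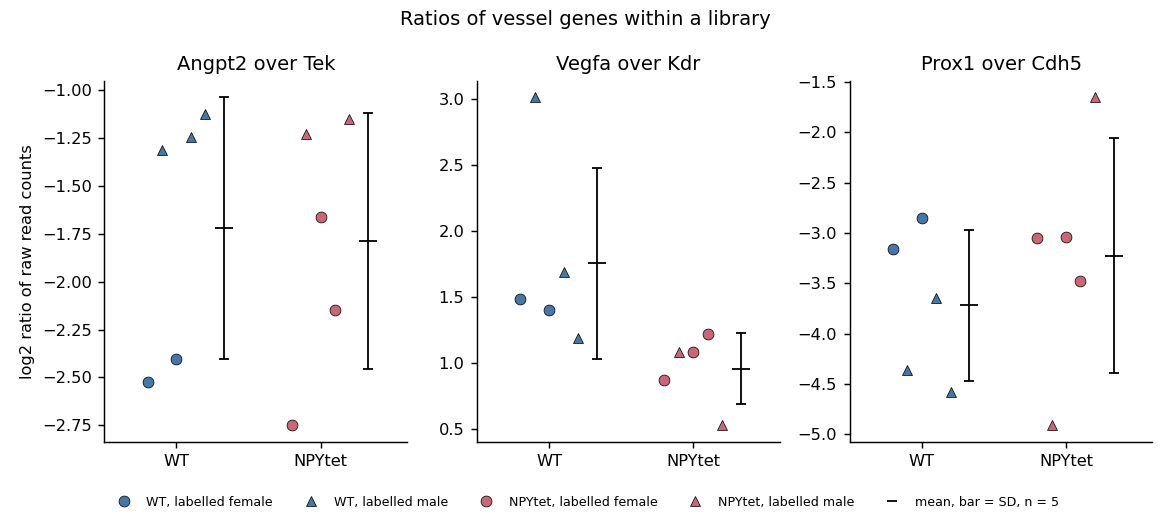
Log2 ratio of raw read counts of 2 vessel genes in each library, for Angpt2 over Tek, Vegfa over Kdr and Prox1 over Cdh5; symbols give genotype and the sex on the label, and bars are the mean ± SD of 5 libraries. In the middle panel the NPYtet libraries lie between 0.53 and 1.22 and the WT libraries between 1.19 and 3.01, the highest being WT replicate 2.

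The libraries were also compared by the sex on the label, which is a term of the same fit. Tek was lower in libraries labelled male (edgeR log2 fold change, male minus female, -1.36, SE 0.34, adjusted p = 0.0498) and was the only vessel gene past the test, where 2.48% of all genes were called, 1.36% higher and 1.12% lower in males. At an unadjusted p under 0.05 there were 3 of 10 vessel genes, all lower in males, against 24.6% of all genes in either direction and 11.5% in that one. Groups did not overlap for 2 of 10 vessel genes, against 8.44% of all genes. The comparison is of labels, and the library labelled female that carries Y-linked reads is counted as female in it.

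Tek was at 20.5 to 30.8 CPM in the 5 libraries labelled female (mean 26.3 ± 4.20, SD) and 3.81 to 13.7 CPM in the 5 labelled male (mean 9.98 ± 3.95), without overlap. The fitted level was 2.57 times higher in females (95% interval 1.55 to 4.25). Vegfc was at 6.33 to 9.27 CPM (mean 7.88 ± 1.25) in females and 1.64 to 4.26 CPM (mean 3.24 ± 1.14) in males, also without overlap. Its fitted level was 2.39 times higher in females (interval 1.41 to 4.06), which missed the threshold (edgeR adjusted p = 0.0738).

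Prox1 was at 3.33 to 5.83 CPM (mean 4.82 ± 1.04) in females and 1.22 to 4.5 CPM (mean 2.52 ± 1.25) in males. The only male value inside the female range was that of NPYtet replicate 5. The fitted fold was 1.86 (interval 1.06 to 3.27, edgeR adjusted p = 0.169). Cdh5, by contrast, had overlapping groups (41.6 ± 7.55 and 37.4 ± 21.1 CPM) and a log2 fold change of -0.09 (SE 0.37).

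NPYtet replicate 1, labelled female but with Y-linked reads, had 25.3 CPM of Tek, 7.03 CPM of Vegfc and 4.85 CPM of Prox1, within the range of the other 4 libraries labelled female for each gene. Without that library the Tek difference was -1.35 (SE 0.37, edgeR adjusted p = 0.0591). Without WT replicate 2 and NPYtet replicate 5 it was -1.08 (SE 0.23, adjusted p = 0.0448), and without all 3 it was -1.11 (SE 0.25, adjusted p = 0.0440). The adjusted p of the Tek difference ran from 0.00282 to 1 over the 22 alternatives, and its sign was the same in each.

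**Figure D5:**
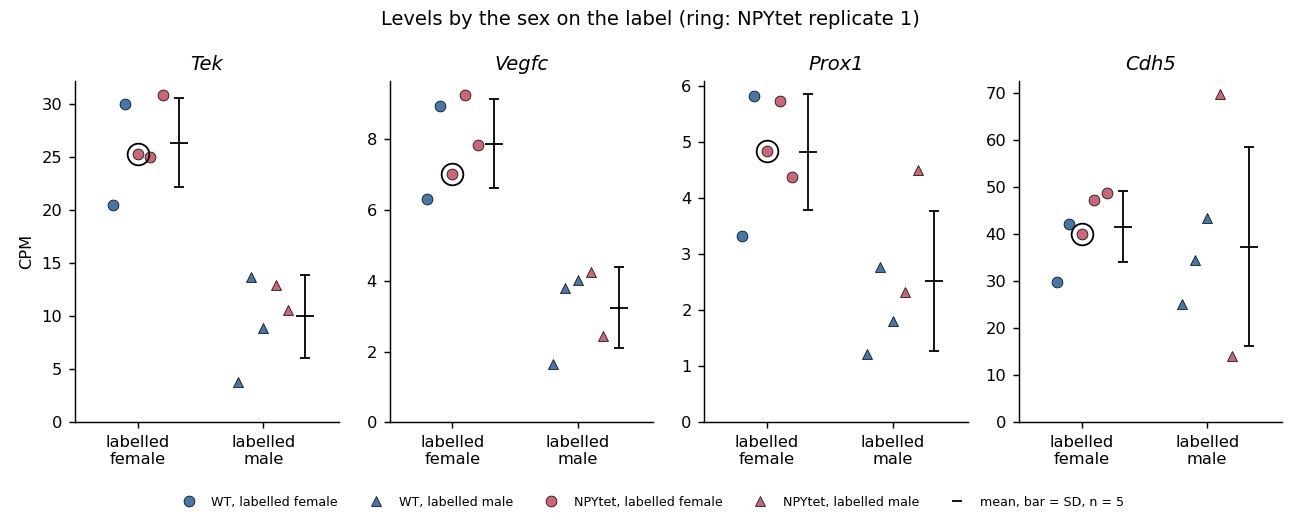
CPM of Tek, Vegfc, Prox1 and Cdh5 in libraries labelled female and male, colours giving genotype, bars the mean ± SD of 5 libraries, and the ring the library labelled female that carries Y-linked reads. Tek and Vegfc do not overlap between the labels (lowest female 20.5 and 6.33 CPM, highest male 13.7 and 4.26 CPM), while the Cdh5 groups do.

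All 10 vessel genes had a negative fitted difference (median -0.28, against -0.07 over all genes, of which 46.2% were positive). Without WT replicate 2 and NPYtet replicate 5, both labelled male, 3 of 10 were negative. With all 10 libraries, 6 were negative with limma voom, which gave the libraries unequal quality weights. With the follicle covariate 5 were negative, and with the ribosomal RNA share as a covariate 3. With 1 library left out, 9 were negative without WT replicate 2, 8 without WT replicate 3, 5 without NPYtet replicate 5, and 10 without any other single library. Relative to Cdh5 in the same library, the log2 difference between males and females was -1.19 for Tek, -1.03 for Vegfc and -0.72 for Prox1, and without the 2 libraries -1.37, -1.15 and -1.26. These genes were chosen for their difference and Cdh5 for its lack of one, so the ratios are a description with no test.

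The stretches upstream of the start sites of these 3 genes, whose unadjusted p for sex was under 0.05, are printed from the RefSeq annotation of GRCm38.p6, each of 250 bases, 5′ to 3′ on the gene's strand. They lie at chr4:94739039-94739288 (plus strand, Tek), chr8:54077282-54077531 (plus strand, Vegfc) and chr1:190170828-190171077 (minus strand, the more upstream of the Prox1 windows). Capitals mark the motifs that were searched for.
Tek: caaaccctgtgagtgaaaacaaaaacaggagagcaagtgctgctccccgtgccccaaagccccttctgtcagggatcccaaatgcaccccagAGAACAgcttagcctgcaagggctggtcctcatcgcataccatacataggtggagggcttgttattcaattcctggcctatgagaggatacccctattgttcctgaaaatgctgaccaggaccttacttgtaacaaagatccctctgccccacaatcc
Vegfc: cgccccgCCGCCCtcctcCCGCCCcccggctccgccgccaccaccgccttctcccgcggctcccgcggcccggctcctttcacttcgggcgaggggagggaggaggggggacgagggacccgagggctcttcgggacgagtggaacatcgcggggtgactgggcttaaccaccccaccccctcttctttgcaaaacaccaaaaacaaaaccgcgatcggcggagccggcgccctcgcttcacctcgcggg
Prox1: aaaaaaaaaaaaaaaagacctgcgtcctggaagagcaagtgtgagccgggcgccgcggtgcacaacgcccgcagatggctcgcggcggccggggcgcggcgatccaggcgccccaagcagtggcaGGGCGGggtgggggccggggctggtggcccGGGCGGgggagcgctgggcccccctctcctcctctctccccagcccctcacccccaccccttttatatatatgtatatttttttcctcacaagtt
Such windows were found for 7 of the 10 vessel genes. Of 3 motifs of 6 letters searched on both strands, the Tek window held 1 steroid receptor half-site (AGAACA, or TGTTCT on the other strand), which 16.1% of 32851 windows of the same length hold. The windows of Vegfc and Prox1 held 2 GC boxes each (GGGCGG or CCGCCC, in 32.7% of windows). None of the 3 held the ETS core AGGAAG or CTTCCT (29.5% of windows). A match is a description of the letters, and none of the motifs searched was common to the 3 windows.

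Among the wider vessel lists, the sexes differed in mixed directions. The 12 lymphatic genes tested were 5 higher and 7 lower in males by the fitted difference (median -0.09), with none past the test. Among them, Pdpn had 1.39 (SE 0.47), Foxc2 1.26 (SE 0.49) and Reln -0.84 (SE 0.355). The lymphatic growth factor Vegfd did not pass the test (log2 fold change -0.73, SE 0.31, edgeR adjusted p = 0.162). The pericyte gene Abcc9 was at 30.3 ± 7.93 CPM in females and 12.4 ± 7.23 CPM in males (-1.17, SE 0.41, edgeR adjusted p = 0.117). The 9 pericyte genes as a list were 6 higher and 3 lower in males by the fitted difference (median 0.27), with none past the test, and Cspg4 had 0.98 (SE 0.44). Of 26 blood endothelial identity genes, 19 were positive (higher in males, median 0.24) and 7 negative, with none past the test: Nos3, the endothelial nitric oxide synthase, had 1.42 (SE 0.41) and the surface protein Cd34 -1.01 (SE 0.31). The 1 gene past the test in the vessel lists was Thbs1, an angiogenesis inhibitor also released by platelets, which was higher in males (60.6 ± 3.57 CPM in females, 207 ± 121 CPM in males; log2 fold change 1.79, SE 0.37, edgeR adjusted p = 0.0251). The genes named in this paragraph and the next, apart from Abcc9, Vegfd, Flg2 and Ptprc, were chosen after their values were seen. With total counts in place of scaled library sizes, the median over all genes moved from -0.07 to -0.46, and the endothelial identity genes were then 8 positive and 18 negative.

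Other cell types also differed between the labels. The platelet gene Itga2b was higher in males (11.4 ± 1.13 and 32.7 ± 12.9 CPM; 1.51, SE 0.32, edgeR adjusted p = 0.028), and the summed platelet level was 62.3 to 92.9 CPM in females and 61.5 to 161.2 CPM in males. The basal keratin Krt14 was higher in males (2285 ± 518 and 15850 ± 10970 CPM; edgeR adjusted p = 0.0197) and the only one of 10 keratinocyte genes past the test. That list was 4 positive and 6 negative (median -0.14), with the cornified layer gene Flg2 at -0.93 (SE 0.47). Of 10 leukocyte genes, 3 were positive and 7 negative (median -0.66): S100a8 and S100a9, abundant in neutrophils and also made by stressed epidermis, were higher in males (edgeR log2 fold changes 5.85 and 6.21, adjusted p = 0.00269 and 0.0032), and Ptprc, the pan-leukocyte CD45 gene, was lower (-1.56, edgeR adjusted p = 0.0455). Of 8 smooth muscle genes, 6 were negative, and Lmod1 was past the test (-1.66, edgeR adjusted p = 0.0398). The summed follicle level was 37.9 to 28240 CPM in females and 1686 to 30050 CPM in males. All 21 follicle genes had a positive fitted difference (higher in males, median log2 fold change 3.995), with none past the test. With the follicle score as a covariate the Tek difference was -1.17 (SE 0.49, edgeR adjusted p = 0.429), and with the ribosomal RNA share -1.03 (SE 0.38, adjusted p = 0.305). The part of platelets, leukocytes and keratinocytes in the differences was not tested.

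Whether genotype acted differently in the sexes was tested as an interaction, and none of the 10 vessel genes passed (edgeR adjusted p = 1 for each; 0 of 18060 genes were called, and 1.63% had an unadjusted p under 0.05). The difference of the genotype effects, males minus females, ran from a log2 of -0.52 (Flt4) to 0.68 (Prox1), with SE of 0.71 to 0.81. Kdr had a genotype difference of 0.51 (SE 0.52) in females and 0.57 (SE 0.51) in males. Prox1 had 0.12 (SE 0.55) in females and 0.80 (SE 0.56) in males, a difference of 0.68 with an SE of 0.78. Outside the vessel genes, all 21 growing follicle genes had a positive difference of the genotype effects (median log2 6.58). None was past the test, and 17 had an edgeR unadjusted p under 0.05.

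The genes whose level followed a vessel gene most closely over the 10 libraries were listed by Pearson r of log2 CPM among 15170 genes, as a description only, since all share libraries and scaling. For Cdh5 they were Elk3 (r = 0.976), Afap1, Tnfrsf22, Xaf1 and Samhd1 (r = 0.953). For Prox1 they were Gpr141b (r = 0.981), Nr3c1, the glucocorticoid receptor, Nr3c2, the mineralocorticoid receptor, Nfia and Kctd12 (r = 0.978). For Vegfa they were Mapkbp1 (r = 0.955), Gm14286, A230050P20Rik, Olfr1033 and Perm1 (r = 0.933). None of the 15 is another of the 10 vessel genes.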

How the data were processed

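Each deposited file holds the authors' read counts as whole numbers, 1 row per Ensembl ID and 1 mouse per file. Per the submitters' processing notes, the tools were STAR 2.5.2, Trimmomatic 0.36, FastQC 0.11.8, DESeq2 1.30.1 and bcl2fastq, with the mm10 build; the strand column and annotation were not given in the sources used here, so reads of overlapping antisense genes cannot be told apart. Per the labels, libraries came from a directional poly(A) kit with paired-end 75-base reads. Of 49671 IDs, 49412 matched GENCODE M21, and the other 259 held 0.0189% of reads. Within each genotype, no library was a duplicate of another. Pairs of a WT and an NPYtet library were not compared in this way.

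The tests used edgeR 4.0.16 in R 4.3.3 (filterByExpr, minimum count 10 and minimum total 15; TMM scaling; robust quasi-likelihood test on sex and genotype; Benjamini-Hochberg over 18060 genes, threshold 0.05). Log2 CPM adds a prior count of 2. Intervals are at 95%, and depth limits precision by counting error only. In simulated genotype data (17737 genes), 4 of 50 genes changed 2-fold and 36 of 50 changed 4-fold were recovered, with 2 false calls. Alternatives used limma 3.58.1 (voom with quality weights per library), DESeq2 1.42.0, other scaling, filters and covariates, a replicate block, and libraries left out.

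The members and gene lists were chosen with earlier results of these data known. Named are the 10 members, Npy, up to 3 genes per list with the smallest genotype p, and the 5 genes most correlated with Cdh5, Prox1 and Vegfa at a mean of at least 1 CPM; others are said to be chosen after their values were seen. Of 222 list names, 1 was unmatched.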

Additional observations from a re-analysis of the deposited data

How the results depend on the processing

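No vessel gene was called between genotypes in any of 23 alternatives, or for the interaction in any of 22. Genotype calls over all genes (1 as reported) were 35 with DESeq2, 2 with limma voom, 409 with no filter on low counts, 0 without the 3 libraries WT 2, NPYtet 1 and NPYtet 5 (chosen after seeing the data, as were the other removals of several libraries and the ribosomal RNA covariate), and 1 to 8 with 1 library left out. Sex calls over all genes (448) were 2316 with DESeq2, 5590 with limma voom, 217 with total counts, 2380 with no filter, 0 with the replicate block, 20 with the follicle covariate, 89 with the ribosomal RNA covariate, 949 without those 3 libraries and 58 to 2725 with 1 left out. Sex calls among vessel genes (1) were 2 with DESeq2, 3 with limma voom (Tek, Vegfc and Prox1), 0 with RLE scaling, total counts, the stricter filter, the replicate block or the follicle, adipocyte or ribosomal RNA covariate, and 0 to 2 with 1 left out; the Tek call held in 7 of 22 alternatives.

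The genotype sign turned with the follicle covariate for Pecam1 (-0.44), Cdh5 (-0.15), Flt1 (-0.34), Vegfc (-0.15) and Flt4 (-0.51). Vegfa turned with limma voom (0.25), without WT 2 and NPYtet 5 (0.27) and without 3 (0.38). With 1 library left out, the range was -0.33 to 0.37 for Pecam1, -0.23 to 0.63 for Cdh5, -0.31 to 0.38 for Flt1, -0.48 to 0.24 for Vegfa, -0.091 to 0.23 for Vegfc and -0.13 to 0.33 for Flt4; it stayed positive for Kdr (0.20 to 0.77), Tek, Angpt2 and Prox1 (0.19 to 0.71). The Vegfa over Kdr difference was -0.38 without the 2 libraries, -0.31 without 3 and -0.94 to -0.48 with 1 left out. Angpt2 over Tek turned to 0.15 without 3 libraries (-0.27 to 0.18 with 1 left out), and Prox1 over Cdh5 to -0.061 without 2 and -0.25 without 3. The cause was not tested.

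Replicate numbers gave no sign of pairing the mice, though the correlations cannot settle it. Same-numbered deviations correlated at -0.26 to 0.64, and no WT library correlated best with the NPYtet library of its own number. With the replicate block, Flt4 was -0.053 between genotypes, Prox1 0.02 and Tek -0.68 between sexes (7 of 10 vessel genes negative), and Vegfa over Kdr -0.80 (exact permutation test within numbers, p = 0.0625, the smallest 5 pairs allow).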
